A study of Rattus norvegicus with 30 samples.

Results

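The 10 AP-1 genes described here are transcription factor genes that were followed across the oesophageal epithelium of 30 rats: the Fos family genes Fos, Fosb, Fosl1 and Fosl2, the Jun family genes Jun, Junb and Jund, and the related basic leucine zipper genes Atf3, Maff and Batf. These 10 genes were listed by name, all 10 had a probe set on the arrays, and they were read among 14218 genes that could be tested. Each was read from its brightest probe set.

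The study asked how the oncogenic microRNA miR-31 acts on oesophageal carcinogenesis in rats fed too little zinc, and each array held RNA from the epithelium of 1 rat. All were male Sprague-Dawley rats that started at 4 weeks of age, and N-nitrosomethylbenzylamine (NMBA), an oesophageal carcinogen, was given in 4 intragastric doses of 2 mg/kg starting at week 5. The unedited rats formed 4 groups of 5. Zinc-deficient (ZD) rats ate freely and were either untreated, or received an LNA-antimiR against miR-31 (anti-miR-31, a locked nucleic acid oligonucleotide that blocks the microRNA) in the tail vein for 5 weeks, or received it for 20 weeks. Zinc-sufficient (ZS) rats were untreated and pair-fed to the deficient animals. The first anti-miR-31 injection gave 20 mg/kg, 9 injections of 6 mg/kg followed over the first 5 weeks, and the 20-week rats then had 20 more. A second experiment used rats with a constitutive CRISPR/Cas9 knockout (KO) of miR-31 in the same strain, of which 6 ate the ZD diet and 4 the ZS diet, with NMBA as in the unedited rats. The untreated rats had no control oligonucleotide. The protocol text shared by all samples names 15 weeks after the first NMBA dose as a time of killing. The labels do not settle whether the 5-week rats were killed at the same age as the others. The wild-type littermates of the KO rats are not analysed here. Rats are identified below by the number of their array, which carries no order or pairing.

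AP-1 is a family of dimeric transcription factors built from Fos, Jun and related leucine zipper proteins. Fos proteins need a Jun partner to bind DNA, whereas Jun proteins also pair among themselves, and the dimers bind the AP-1 site or, with ATF proteins, the related cAMP response element (CRE). Most of these genes are immediate early genes, transcribed within minutes of growth factor, cytokine or stress signals through MAP kinases, and their transcripts are short-lived. In squamous epithelia AP-1 dimers act on keratin, cornified envelope, protease and cytokine genes.

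The perturbed microRNA and the promoters of 3 genes whose transcripts passed a test are shown to place the measurements. The mature rno-miR-31a-5p lies on the minus strand at chr5:108714906-108714927 of the RefSeq build GRCr8, and capitals mark its seed, bases 2 to 8. Its level was not analysed here. The promoter windows are the 250 bases before the RefSeq start of each gene in GRCr8, all on the plus strand, for Fosl1 (chr1:212183635-212183884), Junb (chr19:40080876-40081125) and Maff (chr7:112792537-112792786). Capitals in them mark the CRE core TGACG read on either strand.
rno-miR-31a-5p: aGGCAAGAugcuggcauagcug
Fosl1: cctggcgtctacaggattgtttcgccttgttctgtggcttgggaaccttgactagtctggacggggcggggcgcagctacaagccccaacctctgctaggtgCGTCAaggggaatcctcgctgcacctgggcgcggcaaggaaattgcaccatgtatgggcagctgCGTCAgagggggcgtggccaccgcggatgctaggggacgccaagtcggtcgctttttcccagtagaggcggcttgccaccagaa
Junb: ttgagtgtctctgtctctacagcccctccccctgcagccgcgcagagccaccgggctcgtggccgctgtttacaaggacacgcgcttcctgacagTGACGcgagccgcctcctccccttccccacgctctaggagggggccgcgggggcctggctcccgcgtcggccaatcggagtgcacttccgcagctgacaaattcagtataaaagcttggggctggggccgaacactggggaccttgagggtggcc
Maff: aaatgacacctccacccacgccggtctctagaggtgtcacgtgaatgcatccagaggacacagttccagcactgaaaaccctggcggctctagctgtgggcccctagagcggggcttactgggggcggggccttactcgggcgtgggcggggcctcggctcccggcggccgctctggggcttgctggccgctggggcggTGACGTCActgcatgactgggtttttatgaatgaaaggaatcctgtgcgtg

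RefSeq promoter windows matched 7 of the 10 genes, and Fos, Jun and Atf3 are named only. The Fosb window (chr1:88089185-88089434, minus strand) lies inside the annotated gene (88082324 to 88089506). It is counted among the 7, but it does not show the sequence before the outer start of Fosb. The core TGACG occurred in 5 of those 7 windows and in 18.22% of all 33469 rat windows of the same length. Fosl1 had 2 copies, one 148 to 144 and one 84 to 80 bases before the start, and Junb had 1 at 155 to 151 bases. The full CRE, TGACGTCA, which contains that core, was present in Maff (51 to 44 bases before the start) and Jund (221 to 214 bases), against 1.59% of all windows. The AP-1 site TGACTCA was in none of the 7 windows and in 4.05% of all windows, and the CArG box, the site of serum response factor, was in none of the 7 and in 1.5% of all. All motifs were sought on both strands, and a match is a run of letters and no proof of binding.

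The arrays carried an epithelial profile: the mean of 11 squamous epithelial markers lay between 12.4 and 12.68 on the log2 scale in all 30 arrays. Transcripts of other layers differed with diet. The mean of 14 smooth muscle genes was 7.05 to 8.14 in untreated ZD rats and 8.81 to 10.19 in ZS rats, and 9.11 to 10.59 in ZD KO rats and 10.52 to 11.39 in ZS KO rats. In the anti-miR-31 rats it ran from 7.17 to 9.19 at 5 weeks and from 7.14 to 9.46 at 20 weeks. Other lists varied too. The mean of 13 skeletal muscle genes ran from 5.13 to 9.66 within untreated ZD rats. In KO rats the median diet difference was -0.82 for fibroblast, -0.76 for skeletal muscle, -0.44 for endothelial, -0.79 for macrophage and -0.70 for T and B cell markers. For neutrophil markers it was 0.32. Only the smooth muscle level was used as a covariate. In bulk epithelium, fewer cells of a type cannot be told apart from less RNA per cell. Array medians were 5.81 to 5.93 in KO rats and 5.37 to 5.45 in unedited rats, so the sets were taken to be normalised separately. Genotype, experiment and normalisation cannot be told apart, and KO and unedited levels were set side by side without a test. All p-values below are from limma over all 14218 genes with Benjamini-Hochberg adjustment and a threshold of 0.05, and all differences are on the log2 scale.

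AP-1 transcripts varied between rats of the same group more than most genes. The standard deviation (SD) within groups was above the median of all genes, 0.16, for 10 of 10 AP-1 genes, and at percentile 92.3 or higher among all genes for 5 of them. These were Atf3 with an SD of 0.90, Fosl1 with 0.80, Fos with 0.77, Maff with 0.56 and Fosb with 0.43. Junb varied less, with an SD of 0.20, and Jun (0.22), Fosl2 (0.24), Jund (0.25) and Batf (0.25) lay between. Fosb and Batf were among the dimmest 30% of genes by mean signal, so their values sit near the low end of the scale. With 4 to 6 rats a group, the spread of the first 5 genes sets how small a change could pass.

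**Figure D1:**
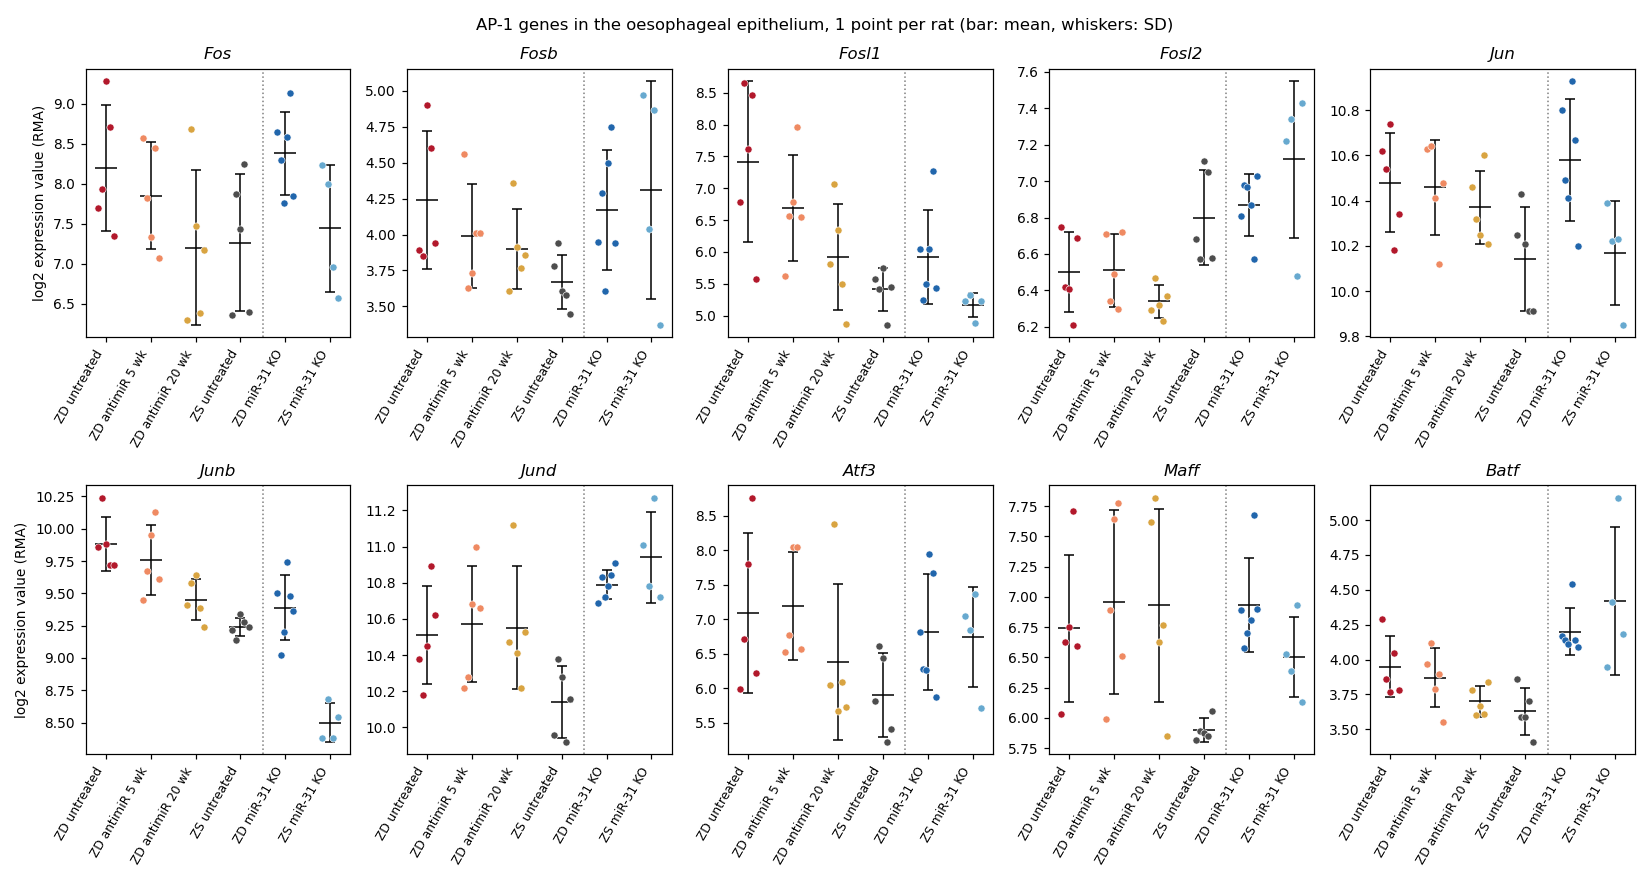
Log2 expression values of the 10 AP-1 genes (vertical axes, each with its own range) by group (horizontal axes), 1 point per rat, with the group mean as a bar and the SD as whiskers; the dotted line separates the unedited rats from the KO rats, whose arrays were taken to be normalised separately. Junb values of the 5 untreated ZD rats (9.72 to 10.24) lie above all 5 ZS rats (9.14 to 9.34), while Fosl1, Fos, Atf3 and Maff spread over more than 1 log2 unit within the untreated ZD group.

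Zinc deficiency in unedited rats was accompanied by higher Fosl1 and Junb. Both rose, which is 2 of the 10 AP-1 genes, while 13.9% of all genes passed in either direction. The estimates lay above 0 for 9 of the 10 genes, and the median difference of the 10 was 0.60, against 0.004 for all genes. Unadjusted p in limma was under 0.05 for 9 of the 10 AP-1 genes and for 3988 of all genes.

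Fosl1 encodes Fra-1, a Fos protein without the transactivation domain of Fos that accumulates under Ras and ERK signalling. Its values were 6.78, 8.65, 7.62, 8.46 and 5.58 in untreated ZD rats, against 5.58, 5.42, 5.75, 4.85 and 5.45 in ZS rats. In all, 4 of 5 ZD rats were above every ZS rat, and rat 15, at 5.58, lay inside the ZS range. The group means differed 4.02-fold (log2 difference 2.01, SE 0.48, adjusted p = 0.00645), and without rat 15 the difference was 2.47.

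Junb, a Jun family protein that restrains proliferation and cytokine production in keratinocytes in mice, had a smaller and tighter difference. Untreated ZD rats had 9.86, 10.24, 9.88, 9.72 and 9.72, against 9.22, 9.14, 9.34, 9.28 and 9.24 in ZS rats. The groups did not overlap, and the means differed 1.56-fold (log2 difference 0.64, SE 0.13, adjusted p = 0.0015). The smooth muscle level, whose ranges also do not overlap between these groups, was lower in the untreated ZD rats. Within groups its correlation across 30 arrays was -0.40 with Fosl1 and -0.13 with Junb. With that level as a covariate, the Fosl1 difference was 1.12 (adjusted p = 0.412) and the Junb difference 0.57 (adjusted p = 0.102). Neither passed.

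The remaining 8 genes did not pass. Atf3, a stress-induced factor of the ATF/CREB family, had the widest spread. Its values were 5.99, 6.71, 7.80, 8.76 and 6.22 in untreated ZD rats, against 5.81, 6.61, 6.43, 5.22 and 5.41 in ZS rats. The groups overlapped, and the difference was 1.197 (SE 0.54, adjusted p = 0.144). Maff encodes a small Maf protein that lacks a transactivation domain and pairs with Nrf2 and related factors. It had 6.03, 6.63, 6.75, 7.71 and 6.59 in untreated ZD rats, against a narrow 5.82, 5.89, 5.87, 5.85 and 6.06 in ZS rats. In all, 4 of 5 ZD rats exceeded the ZS range, with a difference of 0.84 (SE 0.34, adjusted p = 0.0919).

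Fos, the founding member, had 7.70, 7.94, 9.29, 8.71 and 7.34 in untreated ZD rats, against 6.36, 7.87, 7.43, 8.25 and 6.39 in ZS rats. The overlap was wide, and the difference of 0.94 had an interval of -0.02 to 1.89 (95%, adjusted p = 0.186). Fosb, its close relative, differed by 0.57 (adjusted p = 0.154). Jun, the phosphorylation target of the JNK kinases, differed by 0.34 (adjusted p = 0.1), and Jund, the Jun protein present in most resting cells, by 0.37 (adjusted p = 0.116). Batf, an inhibitory partner of Jun best known from lymphocytes, differed by 0.32 (adjusted p = 0.171). Fosl2, which encodes Fra-2, was the 1 gene with a negative estimate, -0.30 (adjusted p = 0.174), and 3 of 5 untreated ZD rats lay below the ZS range.

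**Figure D2:**
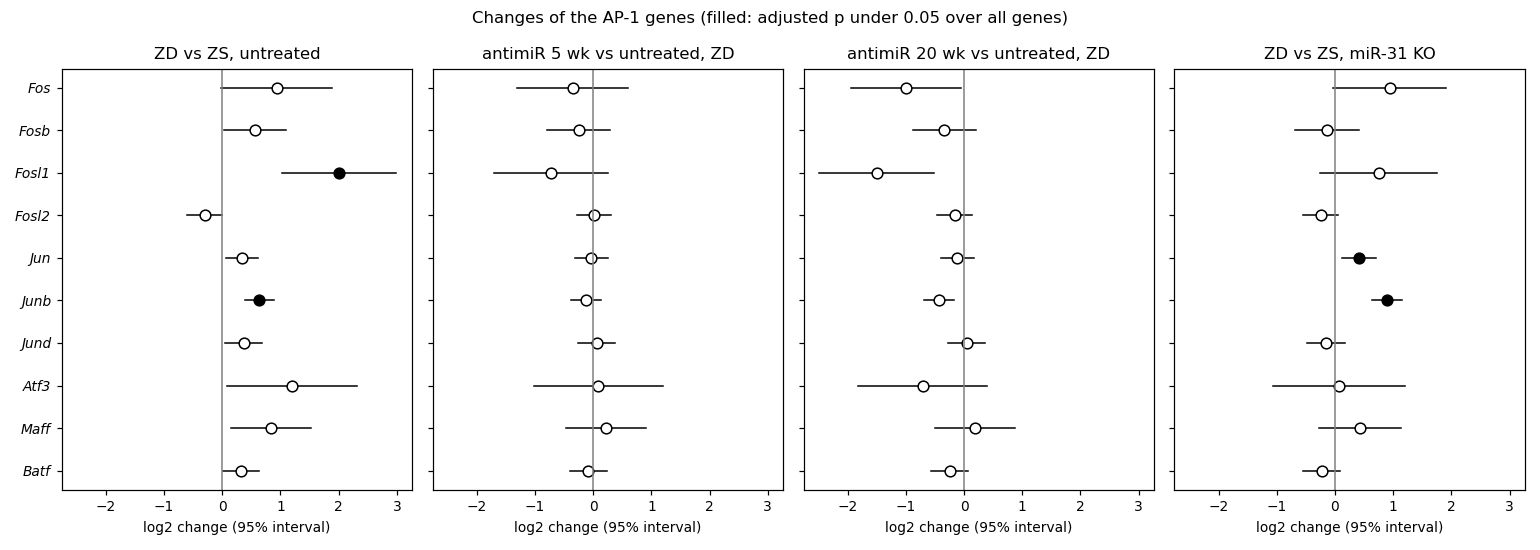
Log2 differences of the 10 AP-1 genes (points) with 95% intervals (lines) in 4 comparisons, with filled points where the adjusted p over all genes was under 0.05. Filled points stand at Fosl1 and Junb for diet in unedited rats and at Jun and Junb for diet in KO rats, and none stand in either anti-miR-31 panel.

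After 5 weeks of anti-miR-31, no AP-1 gene passed against untreated ZD rats, and 0% of all genes did. The smallest adjusted p of any gene was 0.064. At an unadjusted threshold of 0.05, 1021 genes and 0 of the 10 AP-1 genes passed in limma. Fosl1 values were 5.62, 6.56, 6.79, 7.96 and 6.55 in the 5-week rats, inside the untreated ZD range of 5.58 to 8.65. The difference of -0.72 had a 95% interval of -1.71 to 0.26. Junb had 9.45, 9.67, 9.95, 10.13 and 9.61 in the 5-week rats, against 9.72 to 10.24 in untreated ZD rats, and the interval of its difference was -0.38 to 0.13. A decrease of 1 log2 unit lay inside the 95% intervals of Fos, Fosl1 and Atf3 (lower bounds -1.30, -1.71 and -1.02).

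After 20 weeks of anti-miR-31, no AP-1 gene passed against untreated ZD rats either, where 0.647% of all genes passed. At the unadjusted threshold, 3 of the 10 AP-1 genes and 2109 of all genes passed in limma. These 3, named because the count is small, were Fosl1, Junb and Fos, all with negative estimates. Junb had 9.41, 9.58, 9.64, 9.39 and 9.24 in the 20-week rats, all below the untreated ZD range of 9.72 to 10.24. The Junb difference was -0.43 (SE 0.13, adjusted p = 0.0954).

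Fosl1 had 5.81, 7.07, 6.35, 5.50 and 4.87 in the 20-week rats, against 6.78, 8.65, 7.62, 8.46 and 5.58 in untreated ZD rats. The groups overlapped, and the difference was -1.50 (SE 0.48, adjusted p = 0.134, 95% interval -2.48 to -0.51). The call passed in 2 of the 10 fits that left out 1 rat, and the adjusted p reached 0.373 in the others. Without 20-week rat 2, which had the highest Fosl1 of its group, the difference was -1.79 (adjusted p = 0.0471), and without untreated ZD rat 15 it was -1.96 (adjusted p = 0.0186). Without untreated ZD rat 12, which had the highest Fosl1, it was -1.19. Fos had 6.29, 8.69, 7.47, 6.38 and 7.17 in the 20-week rats, with a difference of -0.996 (adjusted p = 0.311). With the smooth muscle level as a covariate, the Fosl1 difference was -1.08 (adjusted p = 0.339) and the Junb difference -0.40 (adjusted p = 0.19).

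The 2 anti-miR-31 durations were not separated by any AP-1 gene: 0 of 10 passed, with 0.0211% of all genes passing. At the unadjusted threshold 1 AP-1 gene, Junb, and 868 of all genes passed in limma. The Junb difference, 20 weeks minus 5 weeks, was -0.31 (adjusted p = 0.723). The Fosl1 difference was -0.77 (adjusted p = 0.865, 95% interval -1.76 to 0.21). All 10 estimates were below 0, from -0.02 for Jund to -0.80 for Atf3, with a median of -0.17, against -0.012 for all genes. In fits that left out 1 rat, those of Fosb, Jund and Maff reached 0.05, 0.09 and 0.25, so their sign was not stable.

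Against ZS rats, the 5-week rats had higher levels of 2 AP-1 genes, Junb and Maff, where 9.08% of all genes passed. Unadjusted p in limma was under 0.05 for 6 of the 10 AP-1 genes and for 3396 of all genes. Junb was above every ZS rat in 5 of 5 rats and rose by 0.52 (SE 0.13, adjusted p = 0.00982). Maff had 5.99, 6.89, 7.64, 7.78 and 6.51 in the 5-week rats, against 5.82 to 6.06 in ZS rats, so 4 of 5 rats exceeded the ZS range. The Maff difference of 1.06 (SE 0.34, adjusted p = 0.0451) lay close to the threshold, and 2 of the 10 fits that left out 1 rat kept it. Fosl1 (1.28, adjusted p = 0.0937), Jund (0.43, adjusted p = 0.0799) and Atf3 (1.29, adjusted p = 0.14) did not pass. Without 5-week rat 6, however, Fosl1 (1.55, adjusted p = 0.042) and Jund (0.52, adjusted p = 0.0352) passed as well, each in 1 of 10 such fits. With the smooth muscle covariate neither called gene passed: Junb differed by 0.47 (adjusted p = 0.0996) and Maff by 0.89 (adjusted p = 0.256).

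The 20-week rats differed from ZS rats in 0 of 10 AP-1 genes, where 3.63% of all genes passed; at the unadjusted threshold 3 AP-1 genes and 2685 of all genes passed in limma. Maff had 7.62, 7.82, 6.63, 6.77 and 5.85 in the 20-week rats, and 4 of 5 lay above the ZS range of 5.82 to 6.06. Its difference was 1.03 (adjusted p = 0.0798), and without 20-week rat 5, the low one, it was 1.31 (adjusted p = 0.0203), the 1 of 10 such fits that passed. Without 20-week rat 2 it was 0.81. Fosl2 had 6.29, 6.47, 6.32, 6.23 and 6.37 in the 20-week rats, all below the ZS range of 6.57 to 7.11, with a difference of -0.46 (adjusted p = 0.0718). Junb differed by 0.21 (adjusted p = 0.39) and Fosl1 by 0.51 (adjusted p = 0.619), with Fosl1 at 0.22 without 20-week rat 2 and 0.77 without 20-week rat 5. These comparisons share the untreated ZD or ZS rats, so their estimates are not independent of each other.

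The ordering of group means in unedited rats was the same for Fosl1, Junb, Jun, Fosb and Batf: untreated ZD highest, then 5 weeks, 20 weeks and ZS. For Fosl1 the means were 7.42 ± 1.27, 6.69 ± 0.84, 5.92 ± 0.84 and 5.41 ± 0.34 (SD, n = 5 each) in that order. For Junb they were 9.88 ± 0.21, 9.76 ± 0.27, 9.45 ± 0.16 and 9.24 ± 0.07 (SD, n = 5 each). No 2 neighbours in either order differed at an adjusted p under 0.05. Fos, Fosl2, Jund, Atf3 and Maff took other orders. The 20-week mean was lowest for Fos and Fosl2, and the ZS mean was highest for Fosl2. For Jund, Atf3 and Maff the 5-week mean was highest. Maff had 6.96 ± 0.76 at 5 weeks, 6.93 ± 0.80 at 20 weeks, 6.74 ± 0.61 in untreated ZD rats and 5.9 ± 0.1 in ZS rats (SD, n = 5 each). The share of all genes with the order of Fosl1 and Junb was not counted.

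In miR-31 KO rats the ZD diet was accompanied by higher Junb and Jun. These were 2 of the 10 AP-1 genes, where 21.4% of all genes passed in either direction, and the median difference of the 10 was 0.24, against 0.005 for all genes. Unadjusted p in limma was under 0.05 for 2 of the 10 AP-1 genes and for 4899 of all genes. Junb ran from 9.02 to 9.74 with a median of 9.42 in the 6 ZD KO rats, against 8.38, 8.68, 8.38 and 8.54 in ZS KO rats. The groups were separated without overlap, and the means differed 1.85-fold (log2 difference 0.89, SE 0.13, adjusted p = 2.94e-05). It passed in all 10 fits that left out 1 rat. Adjusting for smooth muscle level left 0.84 (adjusted p = 0.000922). The smooth muscle ranges of these groups overlapped only at ZD KO rat 36 (10.59) and ZS KO rat 33 (10.52), which limits this adjustment.

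Jun ran from 10.20 to 10.93 with a median of 10.58 in ZD KO rats, against 10.39, 10.22, 10.23 and 9.85 in ZS KO rats. 1 ZD KO rat lay inside the ZS KO range. The difference of 0.41 (SE 0.14, adjusted p = 0.0373) passed in 4 of the 10 fits that left out 1 rat. With the smooth muscle covariate it was 0.32 (adjusted p = 0.238). The other probe sets of Jun gave 0.41 (adjusted p = 0.186) and 0.31 (adjusted p = 0.14) when each probe set was tested on its own.

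Fosl1 did not pass in KO rats. It ran from 5.24 to 7.27 with a median of 5.76 in ZD KO rats, against 5.23, 5.32, 4.89 and 5.23 in ZS KO rats. In all, 5 of 6 ZD KO rats were above every ZS KO rat. Rat 38, at 7.27, stood more than 1 log2 unit above the other ZD KO rats, which reached 6.05. The difference was 0.75 (SE 0.49, adjusted p = 0.287), and 0.48 without rat 38. Fos differed by 0.94 in KO rats (adjusted p = 0.159), beside 0.94 in unedited rats. Atf3 (0.07, adjusted p = 0.948), Maff (0.43, adjusted p = 0.397) and Fosl2 (-0.25, adjusted p = 0.245) did not pass, although the Fosl2 difference depended on single rats, at -0.46 without ZS KO rat 32 (adjusted p = 0.0228) and -0.14 without ZS KO rat 33, and passed in 1 of 10 such fits. Nor did Fosb (-0.14), Jund (-0.15) or Batf (-0.23) pass. Within groups, across 30 arrays, Fosl2 was correlated with the mean level of T and B cell (r = -0.6), macrophage (-0.52) and epithelial markers (0.53). ZS KO rat 32 had the highest T and B cell (7.82) and macrophage (8.55) levels and the lowest epithelial level (12.4) of all rats. The part of these levels in the Fosl2 values was not tested.

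The diet difference of no AP-1 gene differed between KO and unedited rats at the threshold, where 8.41% of all genes passed the interaction test. At the unadjusted threshold, Batf and Jund of the 10 and 3328 of all genes passed in limma. The interaction, the diet difference in KO rats minus that in unedited rats, was -1.25 for Fosl1 (SE 0.69, adjusted p = 0.278), with a 95% interval of -2.66 to 0.15. For Junb it was 0.25 (adjusted p = 0.438, 95% interval -0.12 to 0.62), for Atf3 -1.13 (adjusted p = 0.412) and for Fos 0.004 (adjusted p = 0.998). Batf (-0.55, adjusted p = 0.121) and Jund (-0.52, adjusted p = 0.147) did not pass either. Batf did so without ZS KO rat 30 (-0.71, adjusted p = 0.0314). Without ZS KO rat 32, which had the highest Batf of all rats at 5.16, the interaction was -0.30. Within groups Batf was correlated with the T and B cell marker level (r = 0.83) and the macrophage marker level (r = 0.74), both descriptions across 30 arrays. The T and B cell level was 5.33 to 5.65 in ZD KO rats and 5.30 to 7.82 in ZS KO rats. It stayed between 4.61 and 5.17 over all unedited rats, so its correlation with Batf rests largely on the ZS KO rats. The macrophage level was 6.2 to 6.9 in ZD KO rats and 6.56 to 8.55 in ZS KO rats, and rat 32 had the highest value of both. Their part in the Batf values was not tested.

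Set side by side as the rank of a gene among all genes of its own array, Junb lay lower in KO rats on both diets. Its percentile was 78.7 to 87.2 in ZD KO rats, beside 88.6 to 92.6 in untreated ZD unedited rats. On the ZS diet it was 68.3 to 73.7 in KO rats, beside 83.0 to 85.6 in unedited rats. For Fosl1 the percentile was 26.0 to 50.2 in ZD KO rats, beside 35.8 to 76.8 in untreated ZD unedited rats. It was 22.2 to 26.4 in ZS KO rats, beside 27.5 to 37.1 in ZS unedited rats. Jun did not separate the sets, at 91.5 to 95.7 in ZD KO rats beside 92.1 to 95.1 in untreated ZD unedited rats.

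**Figure D3:**
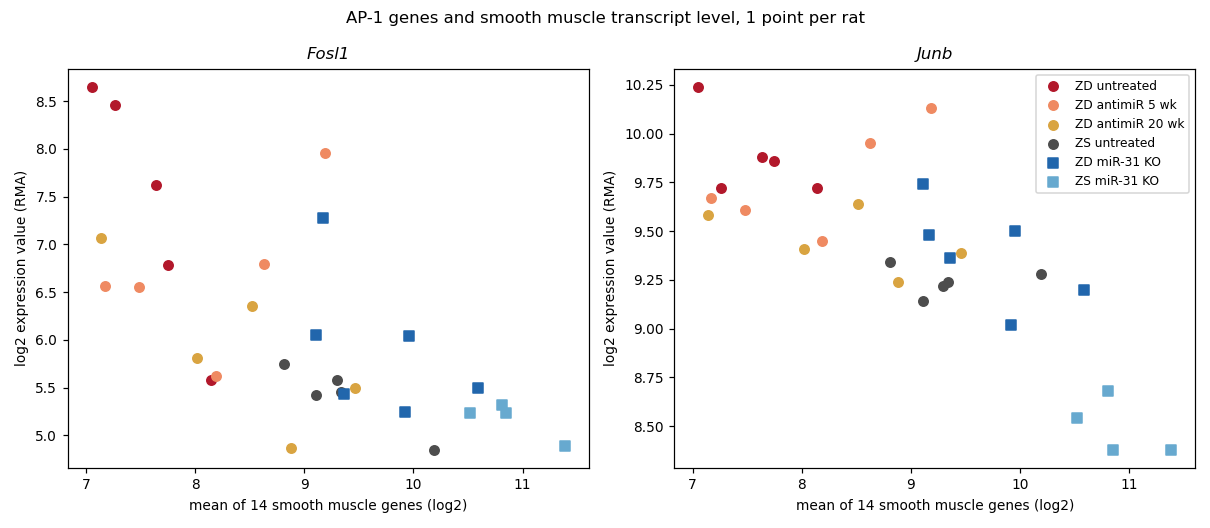
Log2 values of Fosl1 and Junb (vertical axes) against the mean log2 value of 14 smooth muscle genes (horizontal axes), 1 point per rat, with circles for unedited and squares for KO rats. Untreated ZD rats lie at 7.05 to 8.14 and ZS rats at 8.81 to 10.19 on the horizontal axis, so diet and smooth muscle level do not overlap in those groups. Of the 6 ZD KO rats (9.11 to 10.59), only rat 36, at 10.59, reaches the ZS KO range (10.52 to 11.39), so diet and smooth muscle level hardly overlap there either.

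Within groups the AP-1 genes did not vary as 1 block. Across 30 arrays, correlations between deviations from the group means were above 0 for 29 of 45 pairs of AP-1 genes and above 0.5 for 9 pairs, with a median of 0.18. Atf3 and Maff had the highest (r = 0.73). Atf3 was also correlated with Jund (0.67), Fosl1 (0.65), Fosb (0.60) and Fos (0.57), and Fosl1 with Maff (0.66) and Junb (0.64). Fos went with Fosb (0.63). Fosl2 had values below 0 with all the other AP-1 genes, down to -0.51 with Maff. Among other immediate early genes, Zfp36, which encodes an mRNA-destabilising protein, was correlated with Atf3, Maff and Fosl1 at 0.78 each. The pooled values hide differences between the 20 unedited and the 10 KO arrays for some pairs. Fosl1 with Jund gave 0.43 and -0.16 in that order, and Jun with Atf3 -0.13 and 0.87, whereas Atf3 with Maff gave 0.76 and 0.64. All points share the array normalisation, and these values are descriptions without a test.

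**Figure D4:**
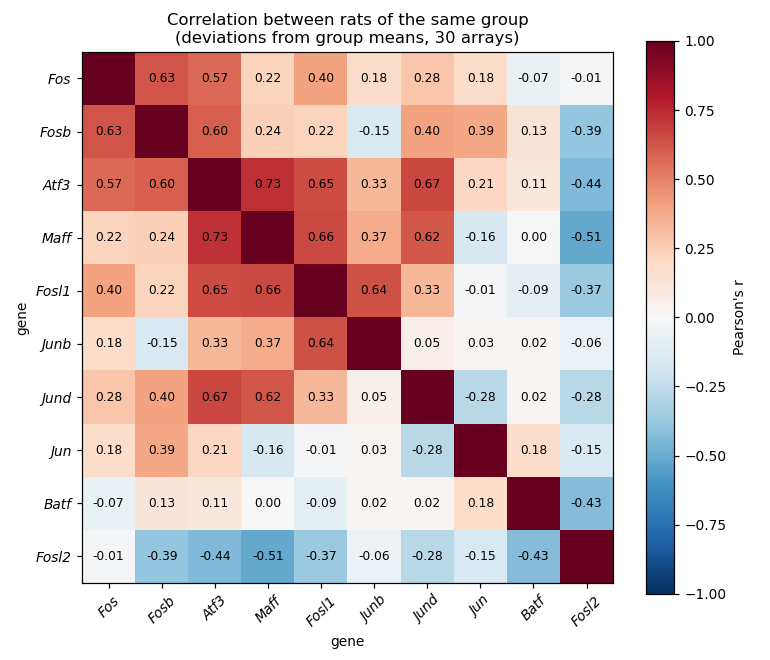
Pearson correlation between pairs of AP-1 genes (both axes) over 30 arrays after each group's mean was subtracted, with the colour scale running between -1 and 1. Atf3, Maff, Fosl1 and Jund share positive values up to 0.73, Fos and Fosb pair at 0.63, and Fosl2 has negative values with all the others, down to -0.51.

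Over the 20 unedited arrays, the genes with levels most like Fosl1 were Emc6 (r = 0.98), Mrto4 (0.96), Pdap1 (0.94), Sec61g (0.94) and Ddx39a (0.94). The same pairs gave 0.97, 0.95, 0.89, 0.91 and 0.90 after group means were removed, so the likeness to Fosl1 held between rats of the same group. Emc6 moved over a far narrower range, with group means of 10.46 ± 0.26 in untreated ZD rats and 10.13 ± 0.07 in ZS rats (SD, n = 5 each). For Fos, the closest were Fosb (0.74), Nopchap1 (0.74), Coq10b (0.71), Emc2 (0.70) and Whamm (0.70). For Junb they were Sec11c (0.90), Id1 (0.88), Gnptg (0.87), Dyrk3 (0.87) and Eif2d (0.87), and for Atf3 Naa38 (0.91), Fabp12 (0.90), Ppp1ca (0.89), Chchd6 (0.89) and Btnl5 (0.88). After group means were removed, the values were 0.61 to 0.70 for Fos and 0.85 to 0.91 for Atf3. For Junb they fell to between 0.58 (Dyrk3) and 0.79 (Sec11c), so its likeness came partly from differences between groups. The genes named as most alike were picked as the highest of all genes over arrays that share groups and normalisation.

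The signalling genes upstream of AP-1 and its partner genes are described next. Of 27 measured kinases and ternary complex factors, 2 rose and 2 fell on the ZD diet in unedited rats, a share near the 13.9% of all genes. Elk3, which encodes an ETS factor that acts with serum response factor on Fos, rose by 0.97 (adjusted p = 0.000267), and Map2k1, which encodes the ERK kinase MEK1, rose by 0.50 (adjusted p = 0.00182). Prkcd, a protein kinase C gene, fell by 0.44, and Map2k6, which encodes a p38 kinase, fell by 0.42 (adjusted p = 0.0374). Srf, the gene of serum response factor itself, was -0.02 (adjusted p = 0.938). In KO rats 0 of the 27 rose and 6 fell, where 9.47% of all genes rose and 12% fell. The median difference of the 27 was -0.132, against 0.005 for all genes. Those that fell were led by Map2k5 (-0.43) and Mapk14 (-0.33) and included Elk1 (-0.30) and Srf (-0.27, adjusted p = 0.042). After 20 weeks of anti-miR-31, Map2k6 was 0.62 higher than in untreated ZD rats (adjusted p = 0.0278). It was the 1 of the 27 that passed, where 0.647% of all genes passed.

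Of 27 other basic leucine zipper genes, 2 rose and 0 fell with diet in unedited rats, where 13.9% of all genes passed. They were Cebpd (0.87, adjusted p = 0.00265) and Nfil3 (0.84, adjusted p = 0.0128). In KO rats, where 21.4% of all genes passed, 2 rose, Cebpb (0.40) and Cebpa (0.28), both genes of epithelial differentiation. A further 3 fell, Nfe2l1 (-0.40), Jdp2 (-0.50) and Mafa (-0.43), and Jdp2 encodes a repressor that pairs with Jun. The Cebpd interaction was -0.89 (adjusted p = 0.0357). Cell type markers moved with diet in these rats too: 12 of 14 smooth muscle genes fell in unedited rats and 8 of 14 in KO rats, where 6 of 11 macrophage genes also fell.

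Of 27 other immediate early genes, 5 rose and 1 fell on the ZD diet in unedited rats, and 8 rose and 1 fell in KO rats, beside 13.9% of all genes passing in unedited and 21.4% in KO rats. Id1 (0.95), Gadd45b (0.62), Ier5 (0.36), Klf10 (0.45) and Csrnp1 (0.33) rose in unedited rats. In KO rats, Klf4 (0.63), Egr2 (1.02), Gadd45b (0.95), Klf6 (0.53), Ier5 (0.46) and Ier2 (0.41) were among those that rose. Egr2, an early growth response gene, fell by 0.89 on the ZD diet in unedited rats (adjusted p = 0.000683). It was 1.07 higher in 20-week than in untreated ZD rats (adjusted p = 0.00478), and its interaction of 1.92 passed (adjusted p = 2.28e-05). Egr1, the archetypal serum-response gene, did not pass for diet in unedited rats (-0.14, adjusted p = 0.835) or in KO rats (0.86, adjusted p = 0.0805).

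Of 49 genes described as AP-1 targets, 18 rose and 1 fell on the ZD diet in unedited rats, with a median difference of 0.38, against 0.004 for all genes, of which 13.9% passed. Those with the smallest adjusted p were Vegfa, Ptgs2, Plat, Krt17, Sprr1b and Ereg, and Ereg, which encodes the EGF receptor ligand epiregulin, rose by 1.10 (adjusted p = 0.00225). After 20 weeks of anti-miR-31, 6 of the 49 fell and 0 rose against untreated ZD rats, where 0.647% of all genes passed. The smallest adjusted p belonged to Ptgs2 (-3.88, adjusted p = 0.0137), the prostaglandin synthase gene, and the largest of the 6 to Vegfa (-0.55, adjusted p = 0.04997). After 5 weeks none of the 49 passed, as none of all genes did. The target list was chosen with earlier results of these data known. Its counts beside the shares of all genes, here and in KO rats, are therefore descriptions and no test of the list.

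In KO rats 5 of the 49 target genes rose on the ZD diet and 3 fell, where 21.4% of all genes passed. Ereg rose by 1.29 (adjusted p = 0.000297), Sprr1a, a cornified envelope gene, by 0.36 (adjusted p = 0.000582), and Tgfa, another EGF receptor ligand gene, by 0.84 (adjusted p = 0.005). Plaur (-0.63), Timp1 (-0.72) and Axl (-0.56) fell. The interaction was negative and passed for 5 target genes, Vegfa (-1.05), Plaur (-0.64), Cd44 (-0.47), Timp1 (-1.05) and Ptgs2 (-3.62, adjusted p = 0.0228), and positive for 0, where 8.41% of all genes passed. Ptgs2 averaged 3.41 ± 0.55 in ZD KO rats (SD, n = 6) and 3.16 ± 0.07 in ZS KO rats (SD, n = 4).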

How the data were processed

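The values are the log2 expression levels deposited by the authors in the series matrix; per the submitters' processing notes they were made with RMA in Affymetrix Expression Console, whose versions are not given in the sources used here. Of 31099 probe sets, 20832 carried 1 gene symbol, and the brightest probe set by mean over all arrays stood for each of 14218 genes. Scale and gene centring were checked on the values, which run between 2.112 and 14.509, and the separate normalisation of the KO arrays was inferred from their medians. Differences were tested in limma 3.58.1 (R 4.3.3) using 1 coefficient for each of 6 groups fitted over 30 arrays, empirical Bayes moderation and Benjamini-Hochberg adjustment over all genes. The fit was tested on simulated data. The number of arrays limits the precision. The AP-1 genes, the partner, kinase, immediate early and target gene lists, the marker lists and the tests were chosen with earlier results of these data known. The text names all 10 AP-1 genes and the 5 genes most like each of 4 AP-1 genes. Genes of the other lists are named for some comparisons only, up to 6 per list and comparison among those past the threshold. Egr1 and Srf are given for diet in unedited and in KO rats only. Rats are separate animals, 1 array each, with no shared numbers. Alternatives were quantile normalisation over all arrays, centring, another variance model, fewer groups in the fit, a filter on dim genes, other handling of probe sets, omission of each rat in turn and a covariate for smooth muscle level.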

Additional observations from a re-analysis of the deposited data

Results flagged for a closer look

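In 3 of 60 combinations of an AP-1 gene and a group, 1 rat stood apart from the rest of its group by Dixon's criterion, and chance alone gives about 1 in 20 groups. Atf3 was 8.38 in 20-week anti-miR-31 rat 2, against 5.67 to 6.09 in the other 4 rats. Maff was 7.68 in ZD KO rat 38, against 6.58 to 6.90 in the other 5 rats, and that rat also had the highest Fosl1 of its group. Batf was 4.54 in ZD KO rat 37, against 4.09 to 4.17 in the other 5 rats.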

How the results depend on the processing

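With the smooth muscle level as a covariate, 0 AP-1 genes passed for untreated ZD against ZS rats, 0 for 5-week against ZS rats and 1, Junb, for ZD KO against ZS KO rats. For ZD KO against ZS KO rats, 1 passed also with only the compared groups in the fit and with the mean of all probe sets, since Jun was lost. For 5-week against ZS rats 1 passed with all probe sets tested. With only the compared groups in the fit, Maff passed for untreated ZD against ZS rats (adjusted p = 0.0447), and for 5-week against ZS rats Fosl1 passed (adjusted p = 0.0494) while Maff did not (adjusted p = 0.0535). Leaving out 1 rat gave counts of 0 to 1 for 20-week against untreated ZD rats, 1 to 4 for 5-week against ZS rats, 0 to 1 for 20-week against ZS rats, 1 to 2 for ZD KO against ZS KO rats and 0 to 1 for the interaction. For untreated ZD against ZS rats, Fosl1 and Junb each passed in 10 of 10 such fits. No gene that passed in any of these fits changed direction. Of 67 estimates that passed in none, 18 changed sign in at least 1 alternative, where they were at most 0.393 in size. No paired analysis was possible because the groups share no replicate numbers. Few rats and wide spread limit Fos, Fosb, Fosl1, Atf3 and Maff most, and signal near the low end limits Fosb and Batf.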
